A study of Mus musculus with 25 samples.

Results

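PD1-negative T cells of mothers that had rejected a skin graft before pregnancy differed from those of mothers that had not at 1706 of 13527 open chromatin regions, most of them more open after the graft and outside promoters. ATAC-seq, in which a transposase cuts accessible DNA and tags the cut ends for sequencing, was compared here between the S+P C4 and N+P C1 subsets, 7 of the 25 libraries of the series, over all peaks of the common peak set. Every library came from the spleen and lymph nodes of an adult female C57BL/6 (B6) mouse and held CD8+ T cells that bound a tetramer of an OVA peptide. These are called fetus/graft-specific cells (TFGS), since graft and fetuses could carry OVA from 2W-OVA.BALB/c donors, a model antigen under an actin promoter. By the paper, only part of the offspring of this mating carried it. N+P mice (Naive+Pregnant) had a Semi-Allogeneic Pregnancy by a 2W-OVA.BALB/c male and no earlier contact with the antigen. S+P mice (Sensitized+Pregnant) had an Allogeneic Skin Graft of that strain, which they rejected, and then the same kind of pregnancy. In both arms the cells were taken within days of delivery and sorted as PD1-. The sorted subset is named C1 in N+P mice (n = 3) and C4 in S+P mice (n = 4), after clusters of surface phenotype, so that the arms differ in the graft and in the cluster that the PD1-negative gate holds. These cannot be told apart in this comparison. Group names are those of the labels, and the libraries were taken by those labels.

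Naive CD8+ T cells keep open the elements of genes for quiescence and lymph node homing, which depend on the factors TCF-1, LEF-1, BACH2 and SATB1. After antigen contact, effector and memory cells open distal elements near genes for cytotoxic granules, cytokines, chemokines and NK-type receptors. The T-box factors T-bet (Tbx21) and EOMES, the AP-1 dimers of Fos, Jun and Batf, and RUNX factors bind many of these elements, and memory cells keep a large part of them open at rest. PD1 (gene Pdcd1) is an inhibitory receptor that activated and exhausted T cells carry at their surface. Accessibility says where DNA was open, not whether a gene was transcribed.

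The labelled cell type was checked against marker genes. Of 11 CD8+ T cell markers 10 had a peak by the nearest gene start, Cd3d, Cd3e, Cd8a, Lck and Zap70 among them, and Cd8b1 had none. None of 8 B cell markers had a peak, and neither had Gata1, Spi1, Csf1r or Foxp3. Of 10 myeloid markers Cd68 alone had one. Klf1 of 5 erythroid, Klrb1c of 5 NK cell and Cd4 and Ikzf2 of 5 CD4+ and regulatory T cell markers had peaks as well. The summed promoter count of the CD8+ T cell markers ranged from 4233 to 5395 in S+P C4 and from 3936 to 4007 in N+P C1. Counts are given throughout as normalized counts, reads in a peak divided by the size factor of the library. Total counts in peaks were 2430890 to 12638751 in S+P C4 and 4524243 to 7518542 in N+P C1. S+P C4 replicate 1 was the shallowest library and stood apart in a second way: its 10 strongest peaks took 4.08% of its counts, against 0.836% to 1.15% in the other libraries compared. The main counts are therefore given with and without it. In sorted pools, a peak that is open in fewer cells and a peak that is less open in each cell cannot be told apart.

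The central 300 bases of the peaks with the smallest adjusted p show the kind of element that differed: 3 opening and 2 closing ones, all outside promoters (GRCm39, plus strand, 5′ to 3′). Capitals mark exact matches to the consensus letters searched below, on either strand. The opening windows were chr12:21276150-21276449, chr19:56744942-56745241 and chr11:16937809-16938108, and the closing windows were chr10:36034088-36034387 and chr13:56655006-56655305, each named for the nearest gene start.
Cpsf3 (opening): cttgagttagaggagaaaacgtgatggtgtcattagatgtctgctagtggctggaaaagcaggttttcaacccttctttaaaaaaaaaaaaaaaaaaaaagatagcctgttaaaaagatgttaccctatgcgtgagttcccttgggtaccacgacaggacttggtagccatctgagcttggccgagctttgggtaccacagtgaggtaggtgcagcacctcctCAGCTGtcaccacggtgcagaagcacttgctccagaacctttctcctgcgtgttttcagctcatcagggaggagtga
Adrb1 (opening): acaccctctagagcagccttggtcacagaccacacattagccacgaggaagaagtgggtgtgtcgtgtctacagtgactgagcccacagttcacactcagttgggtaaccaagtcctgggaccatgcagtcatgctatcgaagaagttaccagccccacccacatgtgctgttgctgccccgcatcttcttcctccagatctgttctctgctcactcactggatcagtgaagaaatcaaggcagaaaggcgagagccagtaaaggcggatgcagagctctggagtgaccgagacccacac
Fbxo48 (opening): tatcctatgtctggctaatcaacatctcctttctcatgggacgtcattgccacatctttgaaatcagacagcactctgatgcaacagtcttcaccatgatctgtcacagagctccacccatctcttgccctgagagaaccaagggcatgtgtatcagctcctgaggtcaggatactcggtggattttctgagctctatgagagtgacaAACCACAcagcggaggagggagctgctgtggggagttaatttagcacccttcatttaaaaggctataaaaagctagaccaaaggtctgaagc
Hs3st5 (closing): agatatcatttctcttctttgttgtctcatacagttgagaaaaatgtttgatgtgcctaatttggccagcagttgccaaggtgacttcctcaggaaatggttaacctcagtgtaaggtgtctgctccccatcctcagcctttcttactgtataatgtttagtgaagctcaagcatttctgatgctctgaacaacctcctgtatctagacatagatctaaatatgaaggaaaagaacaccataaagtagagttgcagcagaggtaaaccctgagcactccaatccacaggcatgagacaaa
Fbxl21 (closing): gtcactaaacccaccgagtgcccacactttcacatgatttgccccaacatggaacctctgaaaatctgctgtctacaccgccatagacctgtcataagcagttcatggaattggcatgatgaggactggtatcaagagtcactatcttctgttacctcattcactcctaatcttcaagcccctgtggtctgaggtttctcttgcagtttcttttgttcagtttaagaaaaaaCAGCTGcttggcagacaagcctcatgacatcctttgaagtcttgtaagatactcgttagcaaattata
The Cpsf3 window held the E-box CAGCTG, the Fbxo48 window held AACCACA, the reverse complement of the RUNX letters TGTGGTT, and the Fbxl21 window held CAGCTG. No searched letters lay in the Adrb1 and Hs3st5 windows.

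Elements of 2 regulator genes are shown as well because they held the AP-1 letters TGAGTCA, in capitals here. Among the 19 key gene peaks that were called (each gene's peak with the smallest p), 6 held TGAGTCA and 1 held the T-box letters TCACACCT in the central 300 bases. The windows are 2 of the 3 such peaks with the smallest adjusted p, chosen after their values were seen: chr4:32179704-32180003 and chr11:96994905-96995204.
Bach2 (opening): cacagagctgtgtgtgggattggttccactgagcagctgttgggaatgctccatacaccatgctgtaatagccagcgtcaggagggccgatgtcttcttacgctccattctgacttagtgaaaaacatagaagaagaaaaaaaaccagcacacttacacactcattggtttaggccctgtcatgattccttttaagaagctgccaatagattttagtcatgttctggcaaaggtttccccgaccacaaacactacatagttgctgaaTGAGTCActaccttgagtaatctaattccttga
Tbx21 (opening): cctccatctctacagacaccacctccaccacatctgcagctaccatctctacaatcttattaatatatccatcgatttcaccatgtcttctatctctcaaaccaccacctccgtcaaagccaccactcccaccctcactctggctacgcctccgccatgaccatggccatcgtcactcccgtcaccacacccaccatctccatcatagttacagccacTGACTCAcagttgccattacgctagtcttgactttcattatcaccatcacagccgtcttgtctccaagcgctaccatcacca
The Tbx21 window held the letters as TGACTCA, their reverse complement.

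S+P C4 differed from N+P C1 at 1706 of 13527 peaks, 12.6% of those tested. Of these, 1301 were opening peaks (9.62% of all peaks), with a higher count in S+P C4, and 405 were closing peaks (2.99%). Calling needed both a DESeq2 adjusted p under 0.1 and a log2 fold change beyond 0.9 in either direction. Without the fold threshold, 7172 peaks (53%) passed the adjusted p, so most significant differences were small. Opening was also steeper than closing. The median log2 fold change was 1.77 over opening peaks and -1.06 over closing peaks, 286 opening peaks exceeded 3, and no closing peak fell below -2, since the steepest closing peak fell by 1.96. The median opening peak rose from a mean of 75.2 in N+P C1 to 282 in S+P C4, while the median closing peak went from 449 to 217. In 94.4% of opening and 81.7% of closing peaks the 2 groups held no overlapping counts, against 42.2% of all peaks (20.7% with S+P C4 higher and 21.5% with it lower). Without S+P C4 replicate 1 the calls numbered 2171, of which 1347 were opening and 824 closing. Closing calls fell to 147 and 224 without S+P C4 replicates 3 and 4 respectively, and to 237 without N+P C1 replicate 3. The fit that gave 147 ended on DESeq2's local dispersion trend in place of the parametric one, but with all libraries that trend gave 1300 opening and 402 closing calls. In contrast, opening calls stayed between 1205 and 1347 in every fit that left out a library of these groups. Loess offsets, which level the fold change over the range of counts, gave 1027 opening and 742 closing peaks, so that 58.1% of the calls were opening, against 76.3% without them. They kept 1015 of the 1301 opening and 396 of the 405 closing calls, and called 10 further peaks of the list in the opposite direction.

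The difference lay away from promoters. Peaks with a midpoint within 1000 bp of a protein-coding transcript start made up 7670 of all peaks, yet 116 of the opening peaks (8.92%) and 52 of the closing peaks (12.8%). Seen from the class, 1.51% of promoter peaks and 20.2% of the other peaks opened, and 0.678% and 6.03% closed. Of the opening peaks, 646 lay in introns and 492 between genes, at a median of 27703 bp from the nearest protein-coding gene start. Closing peaks lay at a median of 39101 bp, and 45.2% of them were more than 50000 bp from a start, against 31.0% of the opening peaks and 15.1% of all peaks. The share of reads in peaks that fell in promoter peaks did not separate the groups: it was 66.6% ± 1.69 in S+P C4 (SD, n = 4) and 68.0% ± 1.81 in N+P C1 (n = 3), a difference of -1.45 percentage points (two-sided exact permutation p 0.4, the smallest possible being 0.0571).

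At the opening peaks the S+P C4 libraries were spread out. Their median log2(normalized count + 1) over the N+P C1 mean was 1.32, 1.72, 2.06 and 1.83 for replicates 1 to 4, and over the closing peaks it was -0.43, -0.93, -1.78 and -1.45. S+P C4 replicate 1 held the lowest S+P C4 count in 77.7% of the opening peaks and the highest in 91.6% of the closing peaks, so it was the library nearest to N+P C1 in both sets. These peaks were chosen with the same libraries and the values only describe them. In the other groups, which entered the peak set and the fit but not the contrast, the same opening peaks stood at 0.30 to 0.38 in Naive and 0.32 to 0.39 in N+P C5, the PD1-positive, CD73-positive cells of N+P mice. They stood at 2.11 to 2.46 in S+P C5, at 2.28 to 2.49 in S+P C7 (PD1-positive, CD73-negative), and at 2.19, 2.08, 0.97 and 1.18 in the Sensitized libraries, which had a graft and no pregnancy. All 12 libraries of the S+P mice and all 4 Sensitized libraries thus lay above all 9 of the Naive and N+P groups. The Sensitized libraries split into a pair above every S+P C4 library and a pair below.

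**Figure D1:**
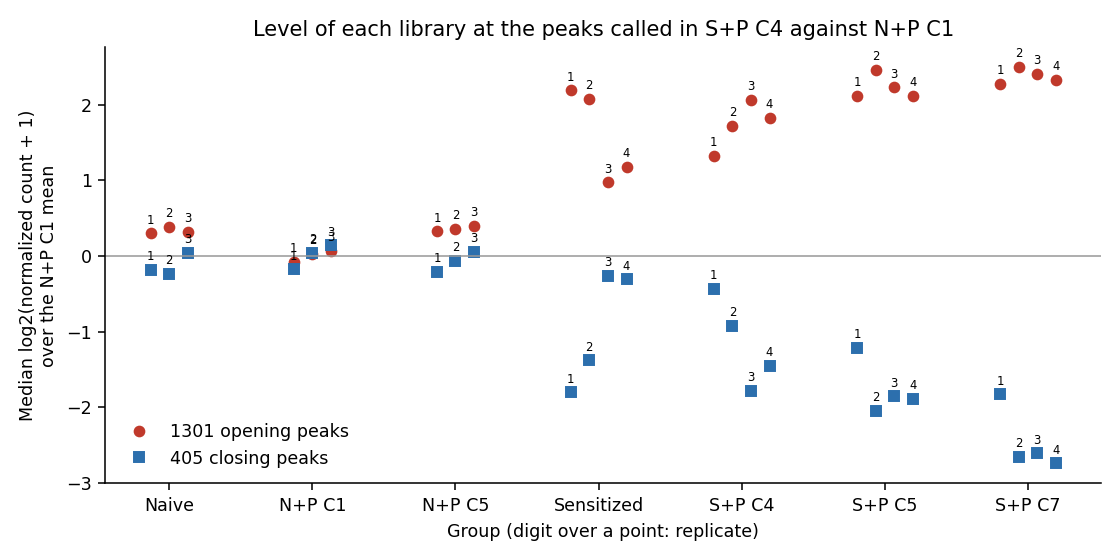
Each point is 1 of the 25 libraries, by group on the x axis, with the median over the 1301 opening (circles) or 405 closing (squares) peaks of log2(normalized count + 1) minus the N+P C1 mean on the y axis. S+P C4 spans 1.32 to 2.06 at the opening peaks and -0.43 to -1.78 at the closing peaks, with replicate 1 nearest to the N+P C1 libraries.

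The 8 opening peaks with the smallest adjusted p, 1 per gene and without overlap between the groups, had log2 fold changes of 3.32 to 5.95. First was the peak nearest Cpsf3, in an intron of Asap2 (chr12:21275801-21276800). Its normalized count was 21.0, 44.9 and 37.7 in N+P C1 and 340.3, 553, 729.9 and 746 in S+P C4, and its log2 fold change was 4.12 ± 0.35 (SE, adjusted p 3.49e-27). The Adrb1 peak, 34461 bp from the start of that beta-adrenergic receptor gene, went from near background to a strong peak (chr19:56744613-56745572). It held 12.2, 8.97 and 3.77 in N+P C1 and 276, 454, 672 and 744 in S+P C4, a change of 5.95 ± 0.52 (SE, adjusted p 4.41e-26). A peak nearest Fbxo48 lay in an intron of Plek, which encodes a protein kinase C substrate of blood cells (chr11:16937510-16938408). Counts there were 8.85, 23.6 and 24.5 in N+P C1 against 259, 510.2, 850.2 and 756 in S+P C4 (5.0 ± 0.47, adjusted p 9.02e-23). The lowest S+P C4 count was replicate 1 in each of these peaks and still lay above the highest N+P C1 count by more than 7 times. Nek6, a mitotic kinase gene, had the 1 promoter peak of the set, at an inner transcript start (73.0, 92.0 and 107 against 555, 935, 1051 and 1048, 3.32 ± 0.32, adjusted p 2.24e-22). Peaks nearest Dennd4a and Pet117 rose by 3.57 and 5.13. With loess offsets the Adrb1 and Pet117 changes were smaller, at 4.96 and 3.50, and both were called.

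The eighth peak, named for Esm1 by the nearest gene start, sits in an intron of Gzmk, the gene of granzyme K (chr13:113319379-113320510). Granzyme K is a granule protease typical of memory CD8+ T cells. The count was 17.7, 20.2 and 26.4 in N+P C1 and 238, 365, 573 and 586 in S+P C4, 4.39 ± 0.43 (SE, adjusted p 1.52e-21). Gzmk has no peak by the nearest start, and its 3 inner peaks were therefore looked up after the values were seen. At an inner transcript start of Gzmk the count was 7.74, 10.1 and 9.42 in N+P C1 and 88.5, 228, 277 and 209.8 in S+P C4 (4.48 ± 0.55, adjusted p 5.48e-14), and at the other inner peak 205, 214 and 292 against 347, 326, 299.9 and 342 (0.49 ± 0.16, adjusted p 0.00766, under the fold threshold). All 4 S+P C4 libraries lay above all 3 N+P C1 libraries at each of these peaks. With loess offsets the peak at the inner start changed by 2.70.

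Closing peaks fell by less than opening peaks rose. The first lay 348556 bp from the start of Hs3st5, a heparan sulfate sulfotransferase gene (chr10:36033582-36034894), with 649, 796 and 940.1 in N+P C1 and 340.3, 258, 257 and 203 in S+P C4, and it changed by -1.61 ± 0.22 (SE, adjusted p 2.65e-11) on the log2 scale. Near Fbxl21 (chr13:56654677-56655636) the count was 594, 696 and 635 in N+P C1 and 357, 391, 301 and 258 in S+P C4, -0.99 ± 0.17 (SE, adjusted p 1.29e-07). The 8 closing peaks were also chosen among those without overlap. At the promoter of Slc16a10, an aromatic amino acid transporter gene (chr10:40016944-40018637), counts were 1024, 958 and 929 against 595, 406, 412 and 498 (-1.03 ± 0.18, adjusted p 1.42e-07). The promoter of Ahr, the aryl hydrocarbon receptor gene (chr12:35584058-35585433), held 708, 686 and 725 in N+P C1 and 456, 388, 233 and 273 in S+P C4 (-1.09 ± 0.21, adjusted p 5.69e-06). The others were a peak nearest Gm17455 in an intron of Cdh23, the Pgap1 promoter, an Ets1 intron and a peak near Anapc15-ps, with changes of -0.98, -0.90, -0.91 and -1.14. Pgap1, Ets1, Gm17455 and Fbxl21 sat near the fold threshold and fell short of it in at least 1 alternative fit each, with log2 fold changes of -0.79 at the weakest (Ets1).

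**Figure D2:**
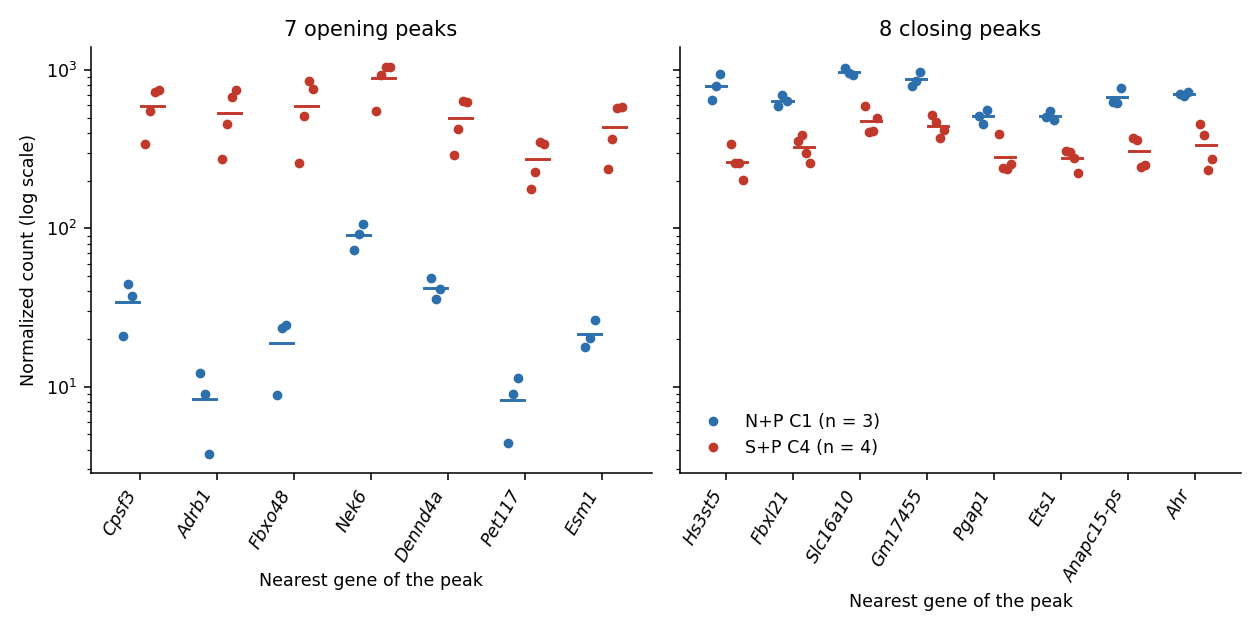
Normalized count (y axis, log scale) of 7 of the 8 opening peaks and of the 8 closing peaks with the smallest adjusted p, by nearest gene on the x axis. Each point is a library (N+P C1, n = 3; S+P C4, n = 4) and bars mark group means. Opening peaks differ by more than 7 times between the nearest libraries in Cpsf3, Adrb1 and Fbxo48, closing peaks by far less.

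Regulators of effector and memory fate had some of the steepest openings. Tbx21, the gene of T-bet, had 4 peaks and all 4 opened, by 1.43 to 5.37. Its peak with the smallest p lies in the gene's intron, 11103 bp from the start, and held 9.96, 22.4 and 11.3 in N+P C1 and 214, 328, 603 and 378 in S+P C4 (4.69 ± 0.54, adjusted p 7.84e-16). The single Zeb2 peak, a repressor gene that acts with T-bet in terminal effector cells, went from 16.6, 7.85 and 7.54 to 126, 174, 296 and 333 (4.42 ± 0.47, adjusted p 2.08e-18). No S+P C4 library came near an N+P C1 library at either peak. Eomes had 4 opening peaks among 8, all of them distal, the nearest at 61776 bp from its start, while its promoter peak changed by 0.89 ± 0.19 and was not called, short of the threshold by so little that it passed in 8 alternative fits. At the best of the distal Eomes peaks the counts were 80.7, 68.4 and 37.7 in N+P C1 and 259, 336, 390.4 and 332 in S+P C4 (2.38 ± 0.28, adjusted p 3.65e-15). Id2, an inhibitor of E proteins, had 2 opening peaks of 5, both distal, and its start peak changed by -0.30 ± 0.15. Bhlhe40, a repressor gene linked to T cell cytokine control, had 10 opening peaks of 16, more than any other gene, by 1.21 to 4.74. The strongest of them held 22.1, 28.0 and 24.5 in N+P C1 and 112, 650.3, 1007 and 889 in S+P C4. S+P C4 replicate 1 lay far below the other S+P C4 libraries there, yet above all N+P C1 libraries. The 5 peaks of Prdm1, the gene of BLIMP-1, gave no call (-0.54 to 0.11). Loess offsets lowered the change of the named Tbx21 and Zeb2 peaks to 3.88 and 3.15, and the Bhlhe40 peak changed by 4.13 with the replicate block.

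Genes of cytotoxic granules, cytokines and chemokines opened at promoters as well as distal elements. Gzma, the gene of granzyme A, had 4 peaks and all opened, by 3.16 to 5.79. The peak nearest its start held 0 reads in N+P C1 replicate 1 and changed by 5.16. That change was 2.86 with loess offsets, and 4.52 and 6.23 without N+P C1 replicates 1 and 2. The best Gzma peak, in an intron of the neighbour Cdc20b, held 54.2, 49.3 and 45.2 in N+P C1 and 286, 399, 611 and 471 in S+P C4 (3.16 ± 0.32, adjusted p 5.74e-20). The promoter peak of Gzmb, encoding granzyme B, went from 53.1, 61.7 and 113 to 167, 354, 511 and 565 (2.42 ± 0.42, adjusted p 2.18e-07). For Ifng, the interferon gamma gene, 3 of 6 peaks opened. The promoter held 126, 98.7 and 82.9 in N+P C1 and 204, 369, 601 and 544 in S+P C4 (2.07 ± 0.33, adjusted p 5.46e-09), and an element 5472 bp away held 46.5, 28.0 and 15.1 against 184, 275, 532 and 449 (3.57 ± 0.45, adjusted p 1.89e-13). The latter is the key gene peak with the T-box letters. Both peaks of Ccl5, a chemokine that memory CD8+ T cells store, opened, and its promoter rose from 112, 101 and 119 to 316, 552, 782 and 761 (2.46 ± 0.32, adjusted p 1.97e-12). The Ccl3 promoter changed by 4.12 ± 0.47, from 28.8, 14.6 and 26.4 to 177, 340.1, 638 and 439.9, and by 3.49 with loess offsets. In all peaks named here each S+P C4 library exceeded each N+P C1 library.

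Klrg1, whose product marks antigen-experienced effector cells, opened at 5 of 5 peaks, by 1.03 to 5.45. Its exon peak had the smallest adjusted p of all key gene peaks: 6.64, 4.49 and 7.54 in N+P C1 and 143, 218, 382 and 311 in S+P C4 (5.45 ± 0.53, adjusted p 2.23e-21). The promoter of Klrc1, the gene of the inhibitory NK receptor NKG2A, rose from 14.4, 7.85 and 11.3 to 122, 204, 422 and 305 (4.57 ± 0.49, adjusted p 2.45e-18). Klrd1, which encodes the partner CD94, did the opposite in sign at its single peak, a promoter, with 386, 487 and 535 in N+P C1 and 316, 350.5, 303 and 325 in S+P C4 (-0.53 ± 0.17, adjusted p 0.0095, not called by size). With loess offsets the Klrg1 and Klrc1 peaks changed by 3.77 and 3.37. Receptors of the Klr family are near copies of each other, and reads without a unique position had been removed, so counts in shared stretches are uncertain.

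Of the receptor genes examined, Cxcr3, Cx3cr1, Il2rb, Il18r1, Cd44 and Itga4 had opening peaks, while Il7r had none (its 5 peaks lay between -0.88 and -0.43). Both Cxcr3 peaks opened, and the promoter of this chemokine receptor held 92.9, 88.6 and 81.0 in N+P C1 and 238, 219, 272 and 216 in S+P C4 (1.43 ± 0.26, adjusted p 1.15e-06). Cx3cr1, a receptor of effector-type cells, opened at 4 of 4 peaks. The steepest Cx3cr1 peak went from 0, 5.61 and 17.0 to 95.3, 189.5, 339 and 271. Zero reads in 1 N+P C1 library make this fold imprecise: the log2 change was 4.40 without N+P C1 replicate 1, 6.33 without replicate 3 and 2.78 with loess offsets. The single Il2rb peak lies near another protein-coding transcript start, 16029 bp from the start of this gene of a receptor chain shared by IL-2 and IL-15. The peak rose less, from 304, 312 and 341 to 534, 510.2, 703 and 636 (0.91 ± 0.18, adjusted p 7.01e-06), just over the fold threshold. It fell short without N+P C1 replicate 1 (0.88) or 2 (0.89) and without S+P C4 replicate 3 (0.82) or 4 (0.88), and with the replicate block (0.86). Il18r1 opened at 2 of 4 peaks, with 97.3, 140.2 and 104 against 269, 431, 536 and 542 at the best (1.97 ± 0.29, adjusted p 3.46e-10). Cd44, an adhesion receptor long used to mark memory T cells, opened at 4 of 8 peaks, none at its promoter, which changed by 0.27 ± 0.19. The best Cd44 peak lies 46918 bp from the start and rose from 70.8, 50.5 and 56.5 to 221, 295, 368 and 331 (2.36 ± 0.36, adjusted p 1.23e-09). Itga4, the alpha-4 integrin gene, opened at 2 of 7 peaks, the stronger at 3.85 ± 0.56, or 1.93 with loess offsets.

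Peaks of genes of the naive and stem-like state were lower in S+P C4 by the median, -0.25 over 148 peaks against -0.01 over all peaks. Calls went both ways, with 14 opening and 9 closing peaks of the 148. All peaks of Ccr7 and Il7r were lower, as were 3 of 6 Tcf7, 9 of 13 Lef1 and 10 of 12 Satb1 peaks. None of the peaks of Tcf7 (6), Ccr7 (6) or Il7r (5) was called, though each gene's best peak was lower in S+P C4 at the adjusted p threshold. At the Ccr7 promoter, a receptor for lymph node entry, counts were 839.5, 852 and 914 against 789, 688, 469.6 and 457 (-0.55 ± 0.16, adjusted p 0.00383). Tcf7, the TCF-1 gene, had 1144, 1121 and 1136 against 871, 946, 645 and 689.6 at its best peak (-0.53 ± 0.13, adjusted p 0.000277). The S+P C4 libraries lay below all N+P C1 libraries in these peaks, with replicates 3 and 4 the lowest. Il7r, the IL-7 receptor gene, came nearest to a call (-0.88 ± 0.26, adjusted p 0.00348), and it passed when N+P C1 replicate 1 (-1.04) or one of S+P C4 replicates 1 (-1.03) and 2 (-0.99) was left out. Lef1 and Satb1 each had 2 closing peaks, of 13 and 12, and their peak with the smallest p was among the few that were higher in S+P C4, by 0.69 ± 0.19 and 0.78 ± 0.20, short of a call. The Satb1 promoter was lower without overlap, with 1219, 1247 and 1319 in N+P C1 and 983, 859, 759.6 and 809 in S+P C4 (-0.57 ± 0.16, adjusted p 0.00153). The Lef1 peak passed without N+P C1 replicate 3 (0.96) and the Satb1 peak without S+P C4 replicate 1 (0.95). Bach2, a repressor gene of effector differentiation, had 2 opening peaks of 13, and the stronger lies 58860 bp from its start: 33.2, 26.9 and 35.8 in N+P C1 and 214, 308, 454 and 522 in S+P C4 (3.57 ± 0.37, adjusted p 1.01e-19). The Bach2 promoter changed the other way, by -0.42 ± 0.09.

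Some loci of inhibitory receptors were open in these PD1-negative cells. Pdcd1 itself had 3 opening peaks of 5. The peak nearest its start, 3016 bp away, held 43.1, 66.2 and 88.5 in N+P C1 and 323, 266, 461 and 299.8 in S+P C4 (2.37 ± 0.36, adjusted p 7.72e-10), and the others rose by 2.04 ± 0.41 and 2.67 ± 0.53. The last of these was 1.88 with loess offsets and 3.76 without N+P C1 replicate 2. The Pdcd1 peak nearest the start had 381 ± 219.7 in Sensitized (SD, n = 4), 759 ± 162 in S+P C5 (n = 4), 98.3 ± 8.19 in N+P C5 (n = 3) and 70.1 ± 8.98 in Naive (n = 3). The S+P C4 mean of 338 ± 85.7 (n = 4) lay above that of Naive and that of the PD1-positive N+P C5, and below that of S+P C5. Tox, the gene of a regulator of exhausted T cells, had 2 opening and 2 closing peaks of 8. Its strongest opening peak is in an intron, with 23.2, 13.5 and 26.4 in N+P C1 and 204, 134, 207 and 176 in S+P C4 (3.12 ± 0.43, adjusted p 1.63e-11), and the peak nearest its start fell short of a call at -0.76 ± 0.19, but passed at -0.95 without S+P C4 replicate 1. Havcr2, the TIM-3 gene, opened at 4 of 4 peaks, where N+P C1 counts were at background (2.21, 0 and 11.3 against 54.4, 132, 263 and 233 at the best). That log2 change was 5.51, with 4.82 and 7.28 without N+P C1 replicates 2 and 3. Tigit opened at 1 of 5, an intron peak with 27.7, 40.4 and 39.6 against 136, 81.8, 97.6 and 104 (1.53 ± 0.26, adjusted p 8.88e-08). With loess offsets the Tigit change was 0.22 and not called, and the Tox and Havcr2 changes were 2.01 and 3.14. Ctla4 had 3 peaks and Nt5e, the CD73 gene, had 5, with no call in either. Lag3 has no peak by the nearest start.

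**Figure D3:**
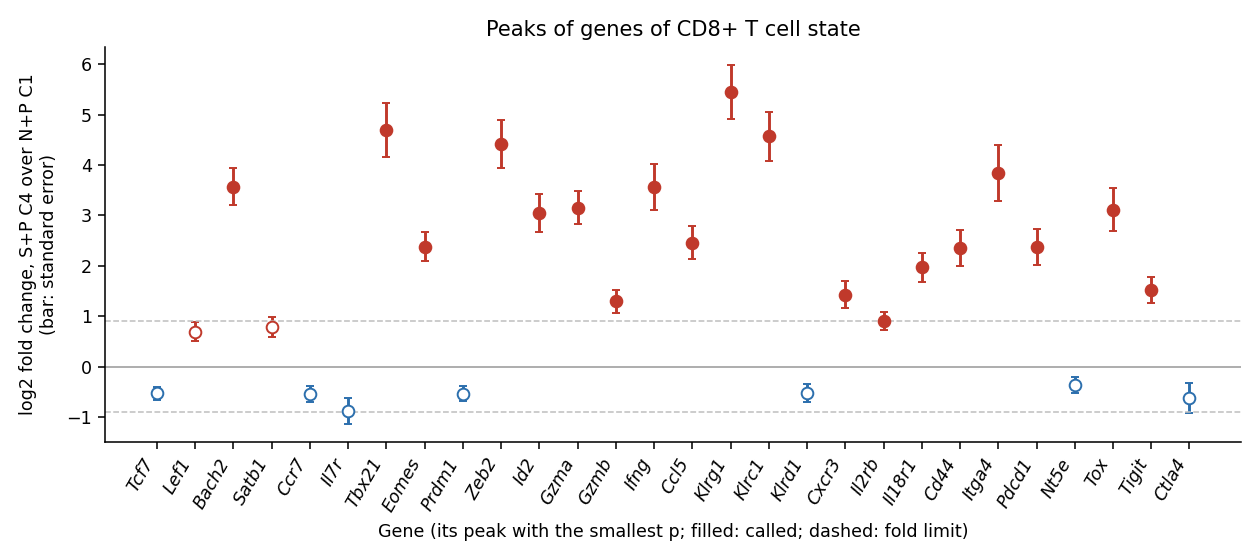
log2 fold change of S+P C4 over N+P C1 (y axis, bar: standard error) for the peak with the smallest p of each of 28 key genes (x axis). Filled points were called, and dashed lines mark the fold limit of 0.9. The 19 called peaks all lie above 0, from Il2rb at 0.91 to Klrg1 at 5.45, and the uncalled peaks lie between -0.88 and 0.78.

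Whole gene lists show the same order of change. The lists were drawn up from general knowledge with earlier results of the series known, so their counts describe and do not test. Over all peaks 9.62% opened and 2.99% closed. Effector molecules and chemokines had 31 opening peaks and 1 closing peak of 56 (55.4% opening), NK-type receptors 11 and 0 of 21 (52.4%), effector and memory transcription regulators 32 and 2 of 76 (42.1%), and chemokine receptors and adhesion genes 29 and 1 of 88 (33.0%). Median log2 fold changes over the peaks of these lists were 1.07, 0.97, 0.55 and 0.41, against -0.01 over all peaks. Loess offsets lowered the opening counts to 26, 8, 28 and 23 and kept the medians above 0 (0.80, 0.69, 0.28 and 0.28). Cytokine receptors and signaling genes had 16 opening and 1 closing of 96, with Il6st, Stat4, Jak2 and Il18r1 at the front. Closing calls of that list rose to 6 both with loess offsets and without S+P C4 replicate 1, and were 0 without S+P C4 replicate 3 or 4 or N+P C1 replicate 3.

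Co-inhibitory and exhaustion genes moved in both directions, with 23 opening and 11 closing peaks of 108 (21.3% and 10.2%) and a median of 0.08. Of the 25 genes with a peak, 14 had an opening and 7 a closing peak, and 4 had both. The closing peaks of this list numbered 4 and 7 when S+P C4 replicates 3 and 4 were left out and 5 when N+P C1 replicate 3 was, while its opening peaks stayed between 19 and 23 in the fits without 1 library. Naive and stem-like regulators had 14 opening (9.46%) and 9 closing (6.08%) of 148, with a median of -0.25, and Bach2, S1pr1, Ets1 and Bcl11b led by the smallest adjusted p, all with an opening peak. Their closing peaks numbered 21 without S+P C4 replicate 1 and 16 with loess offsets, but 4 and 3 without S+P C4 replicates 3 and 4, and 5 and 4 without N+P C1 replicates 2 and 3. T-cell receptor signaling genes had 11 and 3 of 88, near the background share, led by the phosphatase gene Ptpn13 (3.12 ± 0.33) and by Icos (3.63 ± 0.39), which loess offsets lowered to 1.71 and 2.71. Interferon response genes had 2 opening peaks of 22, near Gbp3 and Usp18. Cell cycle genes had 1 of 32, in an intron of Ptpre nearest Mki67. Among marker lists, the CD4+ and regulatory T cell list had 4 closing peaks and no opening peak of 6. They belong to Ikzf2, the Helios gene, with 3, and Cd4 with 1, which was no longer called without S+P C4 replicate 3 (-0.79) or 4 (-0.88) or N+P C1 replicate 3 (-0.88). The Ikzf2 promoter held 1109, 1211 and 1226 in N+P C1 and 687, 476, 430 and 364 in S+P C4. Foxp3, Zbtb7b and Cd40lg had no peak, and what part other T cells had in these counts was not tested. The CD8+ T cell list had 7 opening peaks of 37, and 4 with loess offsets.

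**Figure D4:**
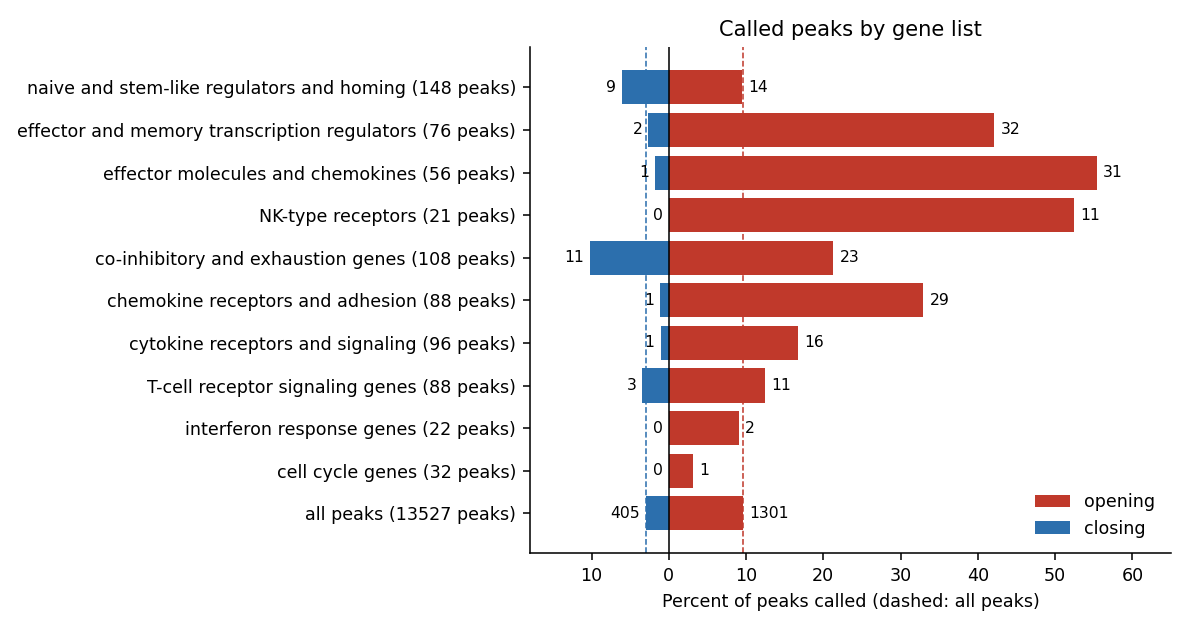
Percent of the peaks of each gene list (y axis) that were called, opening to the right and closing to the left of 0 (x axis), with the number of called peaks at each bar and dashed lines at the shares of all 13527 peaks. Effector molecules (31 of 56), NK-type receptors (11 of 21) and effector regulators (32 of 76) stand farthest from the line of all peaks, and cell cycle genes (1 of 32) lie under it.

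Opening peaks fell to 914 nearest genes, of which 243 had 2 or more opening peaks and 88 had 3 or more. Matching counts over all peaks are not given, and a gene with more peaks can gather more calls by number alone. Behind Bhlhe40 came Rps6kb1 with 7 opening peaks of 8, N4bp1 with 6 of 7, Chsy1 with 6 of 9 and Fasl, the gene of the death ligand, with 6 of 16. The Rps6kb1 group is misnamed by distance, since 6 of the 7 lie in introns of Vmp1, close to the microRNA gene Mir21a (chromosome 11, 86474893 to 86474984, minus strand). The midpoints of the 7 lie 1573 to 22663 bp from Mir21a, a relation looked up after the values were seen. Changes there ran from 1.21 to 4.20. The element 9128 bp from Mir21a, for example, held 33.2, 20.2 and 35.8 in N+P C1 and 112, 299.9, 405 and 295 in S+P C4 (3.25 ± 0.42, adjusted p 3.95e-13). Loess offsets lowered that change to 2.64 and those of 4 others of the 7 to between 1.09 and 2.36. At the uncalled peak of the group the counts were 333, 338 and 332 against 422, 474, 471 and 507 (0.50 ± 0.14).

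Closing peaks fell to 332 genes, 53 of them with 2 or more, and 44 genes had called peaks in both directions. Matching counts over all peaks are again not given. St8sia1, a ganglioside sialyltransferase gene, had 5 closing peaks of 5, the promoter and 4 intron peaks, all between -1.18 and -0.94. Adipoq had 4 of 4, Ext1 4 of 7, Eipr1 4 of 5 and Cblb 4 of 21. Cblb encodes a ubiquitin ligase that restrains T cell receptor signaling, and 2 further peaks nearest it opened. No peak of St8sia1, Adipoq or Eipr1 opened.

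Opening and closing peaks differed in the letters they hold. Exact consensus letters were searched on both strands in the central 300 bases of the 5857 peaks outside promoters, of which 1185 were opening and 353 closing. The AP-1 letters TGAGTCA lay in 24.6% of opening, 12.6% of all and 3.97% of closing peaks. For the T-box letters TCACACCT the shares were 7.26%, 3.02% and 1.13%. Either of them lay in 30.1% of opening and 5.10% of closing peaks. Letters of TCF-1 and LEF-1, ATCAAAG, went the other way, with 4.89% of opening, 7.21% of all and 12.7% of closing peaks, as did the ETS letters CAGGAAGT (9.54%, 10.9% and 15.9%). RUNX letters TGTGGTT were common in both sets (24.1% and 23.8%, against 20.1% of all). The KLF letters GGGTGTGG lay in 5.91% of opening and 2.83% of closing peaks, and where TT follows them they overlap the RUNX letters. Shares for CAGCTG (E-box) were 17.5% and 20.4%, for the IRF consensus 4.98% and 7.93%, for TGACGTCA (CRE) 1.27% and 0.283%, and for the NF-kB consensus 0.675% and 0%. Over whole peaks the AP-1 share was 38.3% of opening and 13.9% of closing peaks, and closing peaks were longer (a median of 781 bp against 664 bp). A match describes letters and shows no binding. No test was run on these shares, since neighbouring peaks are not independent.

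**Figure D5:**
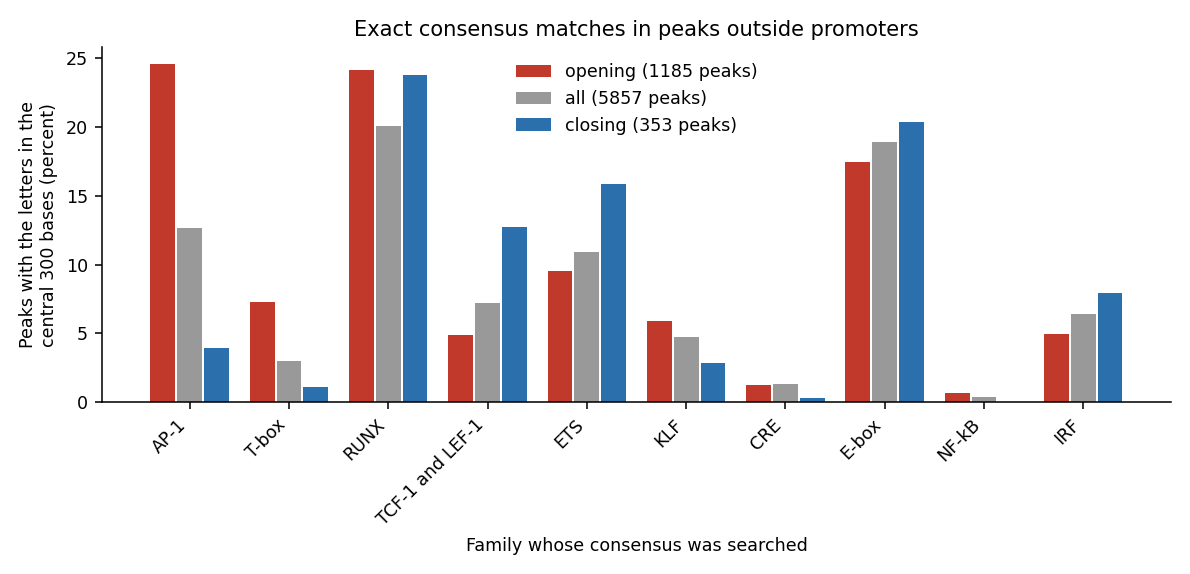
Share of peaks outside promoters whose central 300 bases hold the exact consensus of a factor family (y axis, percent) by family (x axis), for opening (1185), all (5857) and closing (353) peaks. AP-1 and T-box bars are highest for opening peaks (24.6% and 7.26%), and TCF-1 and LEF-1 and ETS bars for closing peaks (12.7% and 15.9%).

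Whether the same peaks differ with sensitization outside this pair of groups was asked in comparisons that share no library with it. The peak set itself limits the answer. Opening peaks overlapped the peak lists of N+P C1 (2.31%) and Naive (4.53%) rarely, and those of Sensitized (40.4%) and S+P C5 (82.0%) more often. For closing peaks the shares were 86.9%, 66.9%, 25.7% and 18.8%. The way these peaks entered the set thus favours the same sign in both comparisons. In Sensitized against Naive, without pregnancy, 97.9% of the 1301 opening peaks were higher and 99.3% of the 405 closing peaks were lower, against 47.2% and 52.8% of all peaks. There 7.22% of all peaks were called opening and 1.4% closing. The calls shared 884 opening peaks, 67.9% of the list here and 90.5% of the other list of 977. They shared 78 closing peaks, 19.3% of the list here and 41.3% of the other 189. Median changes were 1.33 at the opening and -0.68 at the closing peaks, smaller than the 1.77 and -1.06 that chose them. In the PD1-positive, CD73-positive cells, S+P C5 against N+P C5, 99.3% and 98.3% kept the sign, against 50.3% and 49.7% of all peaks. Here 10.3% of all peaks opened and 6.97% closed. The shared calls were 1108 opening peaks (85.2% of the list here, 79.7% of the other 1390) and 350 closing peaks (86.4% of the list here, 37.1% of the other 943), and the medians were 1.88 and -1.68. C5 libraries are other cells of the same animals, so this is no independent repeat. Across the 5857 peaks outside promoters, log2 fold changes correlated with those of Sensitized against Naive at r = 0.902 and with those of the C5 subsets at r = 0.909. Across the 7670 promoter peaks the values were 0.508 and 0.907, and across all peaks 0.861 and 0.909. Peaks are not replicates, and the values share base composition and peak strength.

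Differences between these comparisons were tested as interactions in the same fit. The S+P minus N+P difference in C5 cells, less that in the PD1-negative cells, gave 80 calls (0.591% of peaks). Of these, 56 were higher (0.414%) and 24 lower (0.177%) in C5, and 15 opening and 3 closing peaks of the list here were included. C4 and C5, and C1 and C5, come from the same mice, and with the animal as a block the count was 520, 217 higher and 303 lower, 79 of the 80 included. With edgeR it was 0, with 1022 peaks at an unadjusted p under 0.05. Tigit was among the peaks called: its intron peak rose by 1.53 in PD1-negative and 2.94 in C5 cells, a difference of 1.41 (adjusted p 0.0228). In the fit without the animal block, the change of the Pdcd1 peak nearest the start did not differ detectably (a difference of 0.57 ± 0.49, adjusted p 0.939). Its value with the block is not given here. The count moved when 1 library was left out. It rose to 154 without S+P C4 replicate 1. It was 135 without S+P C5 replicate 1, in a fit that ended on the local dispersion trend, which gave 111 calls with all libraries. It fell to 26 without S+P C5 replicate 2, to 46 and 31 without N+P C1 replicates 1 and 2, and to 49, 29 and 28 without N+P C5 replicates 1, 2 and 3.

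The S+P minus N+P difference in PD1-negative cells, less that of Sensitized against Naive, gave 150 calls of 12740 peaks tested (1.18%). Of these, 126 were higher (0.989%) and 24 lower (0.188%) in the mothers, and 99 were opening peaks of the list here. That list was chosen on the first of these differences, which favours higher calls among its opening peaks. The labels name no PD1 gate for Naive and Sensitized libraries, so the gate may change along with pregnancy. The count moved with single libraries and with DESeq2's independent filter, which leaves low-count peaks untested and was set anew in each fit. Without Naive replicate 1, Naive replicate 2 or Sensitized replicate 4 it was 0, but the filter then left only 1988, 939 and 4348 peaks tested, and with the filter off the counts were 16, 13 and 17, against 184 for all libraries. It was 4 and 14 without Sensitized replicates 3 and 2 (56 and 83 with the filter off), 6 and 12 without N+P C1 replicates 2 and 3 (36 and 97), and 6 and 58 without S+P C4 replicates 3 and 4 (59 and 116). It was 780 without Sensitized replicate 1, 591 without Naive replicate 3 and 465 without S+P C4 replicate 1, where the filter removed no peak. The fit that gave 591 ended on the local trend, and all libraries under that trend gave 217. The fit to the 14 libraries of these 4 groups gave 0 calls among 3035 peaks tested, 11 with the filter off and 2549 peaks at an unadjusted p under 0.05. By edgeR the count was 0 as well, with 3306 at an unadjusted p under 0.05. The results for a closer look give those with the smallest adjusted p in each direction, which are not the largest differences. Peaks named above were among the calls too, near Adrb1 (a difference of 2.84), Hs3st5 (-1.13) and Ahr (-1.01).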

How the data were processed

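Open chromatin was profiled by ATAC-seq in sorted CD8+ T cells of individual mice, and 4 S+P C4 and 3 N+P C1 libraries were compared. Trimming used cutadapt 3.4 and alignment to GRCm39 used Bowtie2 2.2.9, after which the authors discarded PCR duplicates (Picard 2.21.8) and reads placed at several positions. Peaks were called per library with Genrich 0.6.1 in its ATAC mode, which centres on the cut sites, combined per group with ChIP-R and merged with bedtools 2.27.1. The deposited table holds raw read counts per merged peak (deepTools), neither scaled nor filtered. The peak lists deposited per group also hold a score, a signal value and a p-value column, none of which was used here. Only their positions were, for overlaps. Peaks called in a part of the groups enter the merged set, so the set depends on which groups were profiled.

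From the counts, DESeq2 1.42.0 (R 4.3.3) was fitted to all 25 libraries with 1 term per group and median-of-ratios size factors, with Wald tests and Benjamini-Hochberg adjustment over all 13527 peaks, except that the tool's independent filter left 12740 in the pregnancy interaction (184 calls with the filter off). Called peaks passed both thresholds of the study, 0.1 for the adjusted p and 0.9 for the size of the log2 fold change. Errors are SE for log2 fold changes and SD for counts. Alternatives were edgeR 4.0.16, limma 3.58.1 loess offsets, other size factors, a fit to the compared groups alone, a replicate block, a filter at 10 counts in 3 libraries, an adjusted p under 0.05, leaving out each library and, added after seeing the data, the local dispersion trend and the independent filter off in every fit of the pregnancy interaction. The fits were tested on simulated data. Each peak took the nearest protein-coding gene start (GENCODE vM39, GRCm39, 1-based positions), and a promoter peak had its midpoint within 1000 bp of a protein-coding transcript start. Of 13527 peaks, 13522 were named so. Motif letters were searched with pysam 0.24.0. Exact permutation tests used scipy 1.17.1.

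Named peaks are the called peaks whose groups do not overlap, ranked by adjusted p, with the first 8 taken per direction and 1 per gene, then the peaks of fixed key genes nearest the start and with the smallest p, the 4 leading genes per gene list and the 5 genes with most called peaks per direction. Some items that meet these rules are not reported here. The members and lists were chosen with earlier results of these data known. S+P C4 and S+P C5 numbers pair by animal (deviations of the same number correlated at 0.103 to 0.572), as do N+P C1 and N+P C5 (0.108 to 0.400). Differently numbered S+P libraries of these subsets correlated at -0.685 to 0.440. S+P C4 replicate 3 correlated more with S+P C5 replicate 2 (0.440) than with replicate 3 (0.313). The correlations alone therefore did not single out the same-numbered S+P libraries. In N+P mice different numbers reached at most 0.027, below each same-numbered value. Labels give no batch of sort or library preparation. Replicates are separate mice, and the closest pair of libraries differed beyond sampling noise (chi-square per degree of freedom 3.41).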

Additional observations from a re-analysis of the deposited data

Results flagged for a closer look

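In 6 of the 113 groups of values tested, 1 library lay far from the others, and in each it was S+P C4 replicate 1. Chance flags about 1 in 20 such groups. At the Pgap1 promoter this library held 394.7 normalized counts, against 236.2 to 253.5 in the other S+P C4 libraries. At the Satb1 peak with the smallest p it held 510.4 against 948.2 to 988.8, and at the corresponding Prdm1 peak 598.9 against 468.4 to 482.9. At the Bach2 promoter it held 1307 against 1060 to 1095, at the Cd44 promoter 132.7 against 227.2 to 237.1, and at the leading S1pr1 peak 190.5 against 311.5 to 332.4. In all 6 it differed from the other S+P C4 libraries in the direction of the N+P C1 libraries, and at the Cd44 promoter it lay below those as well (170.3 to 180.9). It was also the shallowest of the 7, and the part of depth or of its 10 strongest peaks (4.08% of its counts) in these values was not tested.

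At 80 peaks the S+P minus N+P difference in C5 cells was called unlike that in PD1-negative cells. The 2 with the smallest adjusted p in each direction are given with group means of normalized counts ± SD, in the order N+P C1 (n = 3), S+P C4 (n = 4), N+P C5 (n = 3) and S+P C5 (n = 4). The means near Mmp8 were 79.2 ± 2.38, 73.9 ± 18, 89.7 ± 16.6 and 339.6 ± 48.0, a log2 difference of 2.07 (DESeq2 adjusted p 0.00126). The means near Rplp1 were 50.4 ± 11.2, 39.2 ± 27.3, 48.8 ± 17.5 and 299 ± 58.7, a log2 difference of 3.10 (DESeq2 adjusted p 0.00126). The means near Golm1 were 268 ± 33.5, 355 ± 39.9, 338 ± 9.38 and 232 ± 32.4, a log2 difference of -0.92 (DESeq2 adjusted p 0.00492). The means near Irgc were 909 ± 27.3, 905 ± 227, 1023 ± 112 and 442 ± 85.6, a log2 difference of -1.19 (DESeq2 adjusted p 0.00991). The peaks near Mmp8 and Rplp1 stood out in S+P C5 alone of these groups, and those near Golm1 and Irgc were lowest there. None of the 4 was called in the PD1-negative comparison.

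At 150 peaks the S+P C4 minus N+P C1 difference was called unlike that of Sensitized minus Naive. Leaving out 1 library gave 0 to 780 calls, and 13 to 780 with DESeq2's independent filter off. The 4 peaks below were each called in 4 or 5 of the 14 fits that left out 1 library. With the filter off, those near Icam2, Shc4 and Nrip1 were called in all 14 and that near Prdm8 in 8. Where the call was lost with the filter on, the log2 differences ranged from 1.05 to 1.21 for Icam2, 1.82 to 2.46 for Shc4, -2.24 to -1.86 for Nrip1 and -0.99 to -0.77 for Prdm8. In the order N+P C1, S+P C4, Naive (n = 3) and Sensitized (n = 4), the values were as follows. Near Icam2 the means were 187 ± 14.8, 364 ± 53.6, 269.8 ± 12.5 and 236 ± 57.2, with a log2 difference of 1.15 (DESeq2 adjusted p 0.00514). Near Shc4 the means were 39.9 ± 15.9, 212 ± 60.9, 58.1 ± 11.6 and 71.6 ± 13.3, with a log2 difference of 2.12 (DESeq2 adjusted p 0.00514). Near Nrip1 the means were 95.9 ± 21.2, 147 ± 36.3, 39.5 ± 13.4 and 265 ± 75.0, with a log2 difference of -2.08 (DESeq2 adjusted p 0.00175). Near Prdm8 the means were 343 ± 45.6, 271 ± 29.8, 242 ± 56.5 and 358 ± 25.4, with a log2 difference of -0.91 (DESeq2 adjusted p 0.026). The Icam2 promoter, for an adhesion ligand, and the Shc4 peak were called opening in the mothers, and in Sensitized against Naive neither was called. The Nrip1 peak was highest in the Sensitized mice among these groups. By edgeR neither of the 2 interactions had a call, with 1022 and 3306 peaks at an unadjusted p under 0.05.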

How the results depend on the processing

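In the comparison of S+P C4 with N+P C1, leaving out 1 library gave 1352 to 2171 calls, 1205 to 1347 of them opening and 147 to 824 closing. Loess offsets gave 742 closing calls. The other alternatives kept each count within 1.5 times, with 1690 calls by total counts, 1685 by promoter size factors, 1705 on the 7 libraries alone, 1699 by edgeR and 1633 at an adjusted p under 0.05. All peaks passed the low-count filter, so it changed no count. Numbers shared by S+P C4 and N+P C1 mark different mice, and same-numbered libraries correlated at -0.109, 0.126 and -0.119, so the numbers pair nothing here. With that replicate block 1549 peaks were called, 1186 of them opening and 363 closing.

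The 80 calls of the PD1 interaction (56 higher, 24 lower) became 520 (217 and 303) with the animal as a block, 360 (207 and 153) with the replicate number as a block, 211 (134 and 77) on the compared groups alone and 42 (34 and 8) at an adjusted p under 0.05. Total counts gave 85 higher calls and loess offsets 29. By edgeR there were 0 calls, 0 higher and 0 lower, with 1022 peaks at an unadjusted p under 0.05. Leaving out a library gave 26 to 154 calls, 21 to 119 higher and 2 to 80 lower. The 150 calls of the pregnancy interaction (126 higher, 24 lower) became 2 (2 and 0) with the replicate block, 17 (11 and 6) at an adjusted p under 0.05, 0 on the compared groups alone and 0 by edgeR. In the first 3 of these the independent filter left 9703, 5770 and 10492 peaks untested, against 787. Total counts gave 225 calls, 202 of them higher, and loess offsets gave 58 higher and 46 lower. Leaving out a library gave 0 to 780 calls, 0 to 606 higher and 0 to 226 lower. With the filter off, an alternative added after seeing the data, the 184 calls (156 higher, 28 lower) became 15 (12 and 3) with the replicate block, 57 (45 and 12) at an adjusted p under 0.05, 11 (9 and 2) on the compared groups alone and 82 higher and 71 lower by loess offsets, and leaving out a library gave 13 to 780 calls, 11 to 606 higher and 2 to 226 lower. The filter left at most 8 peaks untested in any fit of the other 2 comparisons. Fits by total counts and without S+P C4 replicate 3, S+P C5 replicate 1 or Naive replicate 3 fell back to the local dispersion trend. With all libraries that trend, also added, gave 1702, 111 (75 and 36) and 217 (179 and 38) calls in the 3 comparisons. The replicate block of the PD1 interaction used DESeq2's local dispersion trend, set after both trends were seen, because its parametric trend converged or failed with the number of computing threads and gave fewer calls where it converged. The cause of the shifts between settings was not tested. The difference in promoter share ranged from -2.23 to -0.46 percentage points without 1 library and was -1.08 at 500 bp and -1.52 at 2000 bp.

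Alternatives were run for 111 single peaks of the comparison: those ranked per direction, the smallest-p and start peaks of the key genes, the leading list peaks, the called Pdcd1 peaks and those at Gzmk and Mir21a. Without 1 library 750 values kept direction and call, 10 gained and 16 lost the call, and 1 reversed (the Tigit start peak, uncalled, at -0.10 without N+P C1 replicate 1 and up to 0.20 without another library). Under the other settings 1092 kept both, 4 gained and 14 lost the call. Loess offsets lowered the fold of 32 of the 111 by over 1.5 times, 31 of them keeping their call, and 7 moved as much without 1 library. The other peaks of the genes with most called peaks were not run singly. All 8 interaction peaks in the closer look lost the call by edgeR. Leaving out 1 of 14 libraries lost it in 9 fits for Icam2 and Nrip1, 10 for Shc4 and Prdm8 and 6 for Golm1, and in none for Mmp8, Rplp1 and Irgc. Of 10 other settings, edgeR included, 4 lost Icam2 and Nrip1 and 5 lost Shc4 and Prdm8. S+P C4 replicate 1 was the shallowest library, with 2430890 counts in peaks.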

Other observations

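The peak list deposited for S+P C4 itself covered few of the peaks that were higher there. Of the 1301 opening peaks, 8.69% overlapped that list, 2.31% the N+P C1 list, 40.4% the Sensitized list and 82.0% the S+P C5 list. Over all peaks these shares were 27.03%, 62.9%, 71.1% and 82.9%, so the overlap of the opening peaks with the S+P C5 list was near that of all peaks. Of the 405 closing peaks, 86.9% overlapped the N+P C1 list and 3.70% the S+P C4 list. The S+P C4 list holds 3788 peaks, the N+P C1 list 8602 and the S+P C5 list 11384. The part of library depth in the length of the lists was not tested.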
